A study of Homo sapiens with 5 samples.

Results

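hsa-miR-22, hsa-miR-26a, hsa-miR-26b and hsa-miR-34a are microRNAs (miRNAs) that have been described as repressed by the transcription factor MYC. Their probes were chosen by name, without star forms, and make up 4 of the 654 human miRNA probes of the panel. Total RNA of 5 human hematopoietic cell lines was extracted with Trizol, and 100 ng per line was profiled on the nCounter system, which counts a color-coded reporter for each miRNA. The lines were Meg-01, which is megakaryoblastic, Jurkat, a T-lymphoblastic line, Raji, a B-lymphoblastic line from a Burkitt lymphoma, U937, which is monocytic, and K562, which is erythroleukemic. None of them received a treatment according to the labels, and each was profiled in 1 sample. No difference between lines was therefore tested, and all intervals below are 95% exact Poisson intervals that cover counting error only.

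MYC drives growth and proliferation, and in Burkitt lymphoma a chromosomal translocation places it under the control of an immunoglobulin locus. In B-cell models, MYC has been described to lower many miRNAs, among them the members studied here and families such as let-7, miR-29 and miR-30, and to raise the miR-17-92 cluster. miR-34a is also known as a target of p53, and the miR-26 genes lie within genes of small CTD phosphatases. MYC mRNA and protein were not measured in these data, so Raji stands for a line with a known translocation and not for a measured level of MYC.

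The mature sequences of the members are shown because hsa-miR-26a and hsa-miR-26b are nearly alike, which bears on how their counts can be read. They are taken from RefSeq (GRCh38.p14), are written 5′ to 3′, and have the seed, bases 2 to 8, in capitals. The panel names carry no arm, and the arm shown is the one that the older unmarked name denotes.
hsa-miR-22: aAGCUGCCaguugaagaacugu
hsa-miR-26a: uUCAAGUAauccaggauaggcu
hsa-miR-26b: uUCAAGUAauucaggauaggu
hsa-miR-34a: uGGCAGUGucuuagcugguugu
hsa-miR-22 lies at chr17:1713914-1713935 on the minus strand, within the span of the long noncoding RNA gene MIR22HG. hsa-miR-26a comes from a pair of genes with the same mature sequence, MIR26A1 at chr3:37969413-37969434 on the plus strand, within CTDSPL, and MIR26A2 at chr12:57824658-57824679 on the minus strand, within CTDSP2. Its probe cannot tell the products of these genes apart. hsa-miR-26b lies at chr2:218402657-218402677 on the plus strand, within CTDSP1. hsa-miR-34a lies at chr1:9151735-9151756 on the minus strand, within the long noncoding RNA gene MIR34AHG. Whether these positions are exonic or intronic was not analysed here. Counted from the 5′ end, hsa-miR-26a and hsa-miR-26b differ by C11U and C21U, are identical at 19 of 21 shared positions, and are 22 and 21 bases long. They share the seed UCAAGUA with miR-1297, which also has a probe on the panel. Among the mature sequences in the table used, the seed GGCAGUG of hsa-miR-34a was also found in miR-449a and miR-449b. This table does not hold every miRNA, and miR-34c-5p is known as a member of the same seed family.

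The summed human counts were 66892 in Raji, 109731 in Meg-01, 130048 in Jurkat, 94027 in U937 and 105224 in K562. Raji thus had the lowest total, while its positive controls summed to 22360 against 19329 to 26631 in the other lines. A probe was taken as above background where its raw count was over the mean of the line's 8 negative control probes by more than 2 SD. This threshold was 45.9 raw counts in Raji, 42.1 in Meg-01, 35.0 in Jurkat, 34.9 in U937 and 34.6 in K562. It was highest in Raji, where the negative controls also had the largest SD (11.4 counts).

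The identities of the lines were checked with miRNAs known from blood lineages. miR-126, known from megakaryocytes and endothelium, had 1954 raw counts in Meg-01, 1482 in K562 and 31 to 99 elsewhere. miR-451 and miR-144, both erythroid, were above background only in Meg-01, with 129 and 981 counts, and in K562, with 59 and 216. The myeloid miR-223 had 3269 counts in Meg-01, 2682 in U937, 1684 in K562, 732 in Jurkat and 62 in Raji. It was thus highest in Meg-01 in raw counts, and in monocytic U937 only after scaling, with 2777 against 2409 normalized counts over background. The paper also reports high levels of miR-223 in Meg-01. The lymphoid miR-150 was above background only in Jurkat. Raji, although lymphoid, thus had no signal above background for it. miR-142-3p, known from all blood cells, was high in every line, with 7436 to 32907 counts. The 34 probes for miRNAs of Epstein-Barr virus, which Raji is known to carry, summed to 2385 counts in Raji and to 1267 to 1446 in the other lines. miR-126, miR-451 and miR-144 set Meg-01 and K562 apart from the other lines. Between this pair, miR-451 and miR-144 were higher in Meg-01 both in raw and in normalized counts, against the labels. miR-126 was higher in Meg-01 in raw counts and as a percentage of human counts, with 1.78 against 1.41, and only after scaling higher in K562, with 1788 against 1434 normalized counts over background. The virus probes set Raji apart.

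The number of members above background was 2 in Raji, 3 in Meg-01, 4 in Jurkat, 2 in U937 and 3 in K562. Over all human probes the share above background was 17.0% in Raji, 27.2% in Meg-01, 35.0% in Jurkat, 28.3% in U937 and 27.5% in K562. Raji had the smallest share of all probes above background, so a member below the threshold in Raji is not in itself a feature of that miRNA.

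hsa-miR-26a was well above background in every line. Its raw count was 280 in Raji (248 to 315), 611 in Meg-01 (564 to 661), 590 in Jurkat (543 to 640), 488 in U937 (446 to 533) and 442 in K562 (402 to 485). It ranked 25, 22, 27, 24 and 22 among the human probes of these lines in the same order. In raw counts Raji was lowest, and its interval lay below those of the other lines, but the rank of the probe within Raji was between its ranks in the other lines. Of the total human counts, hsa-miR-26a took 0.419% in Raji, 0.557% in Meg-01, 0.454% in Jurkat, 0.519% in U937 and 0.420% in K562. The share in Raji was therefore close to that in K562.

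hsa-miR-26b gave a low and even count. It had 58 counts in Raji (44.0 to 75.0), 63 in Meg-01 (48.4 to 80.6), 60 in Jurkat (45.8 to 77.2), 59 in U937 (44.9 to 76.1) and 56 in K562 (42.3 to 72.7). All 5 counts were above the threshold of their line, but the interval in Raji covered the threshold. The highest count was 1.125 times the lowest, although the total human counts of the lines spanned a 1.94-fold range. Among the 88 human probes above background in all 5 lines this ratio had a median of 2.43, and hsa-miR-26b had the lowest of them. For the 40 other probes of this kind with 0.5 to 2 times its mean count, the ratio ran from 1.16 to 4.51 with a median of 1.66. The mean of the negative controls was nearly as even, with a 1.14-fold range over the lines. All 5 counts of hsa-miR-26b lay within each of its 5 intervals, so counting error limits how far its rank can be read. This comparison was chosen after the values were seen. The probe's part from hsa-miR-26a, which is nearly identical, was not tested.

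hsa-miR-22, a miRNA known from erythroid cells and encoded in its own noncoding transcript, had its highest count in K562 and lay at or closer to background in the other lines. Its raw count was 44 in Raji (32.0 to 59.1), 67 in Meg-01 (51.9 to 85.1), 44 in Jurkat (32.0 to 59.1), 21 in U937 (13.0 to 32.1) and 116 in K562 (95.9 to 139). It was above background in Meg-01, Jurkat and K562. Jurkat and Raji had the same count, and only the higher threshold of Raji put it below background there. The intervals of both lines covered their thresholds, so their calls could have gone either way at this depth. In U937 the count was at the mean of the negative controls, and in K562 it stood clear of all other lines.

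hsa-miR-34a was at background in most lines. It had 25 counts in Raji (16.2 to 36.9), 28 in Meg-01 (18.6 to 40.5), 44 in Jurkat (32.0 to 59.1), 25 in U937 (16.2 to 36.9) and 20 in K562 (12.2 to 30.9). Only Jurkat exceeded its threshold, by 8.98 counts, and its interval covered it. This threshold passed 10 of the panel's 46 probes for viruses other than Epstein-Barr virus in Jurkat (21.7%), against 3 or 4 in the other lines. The counts of these virus probes give another view of background. Of the 46, 21 in Raji, or 45.7%, had a count at or above that of hsa-miR-34a, and the numbers were 12 in Meg-01, 18 in U937 and 20 in K562, but 3 in Jurkat. hsa-miR-34a in Raji was thus within the range of probes for other viruses, and no level could be given for it. For hsa-miR-26a the same number was 0 in every line.

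**Figure D1:**
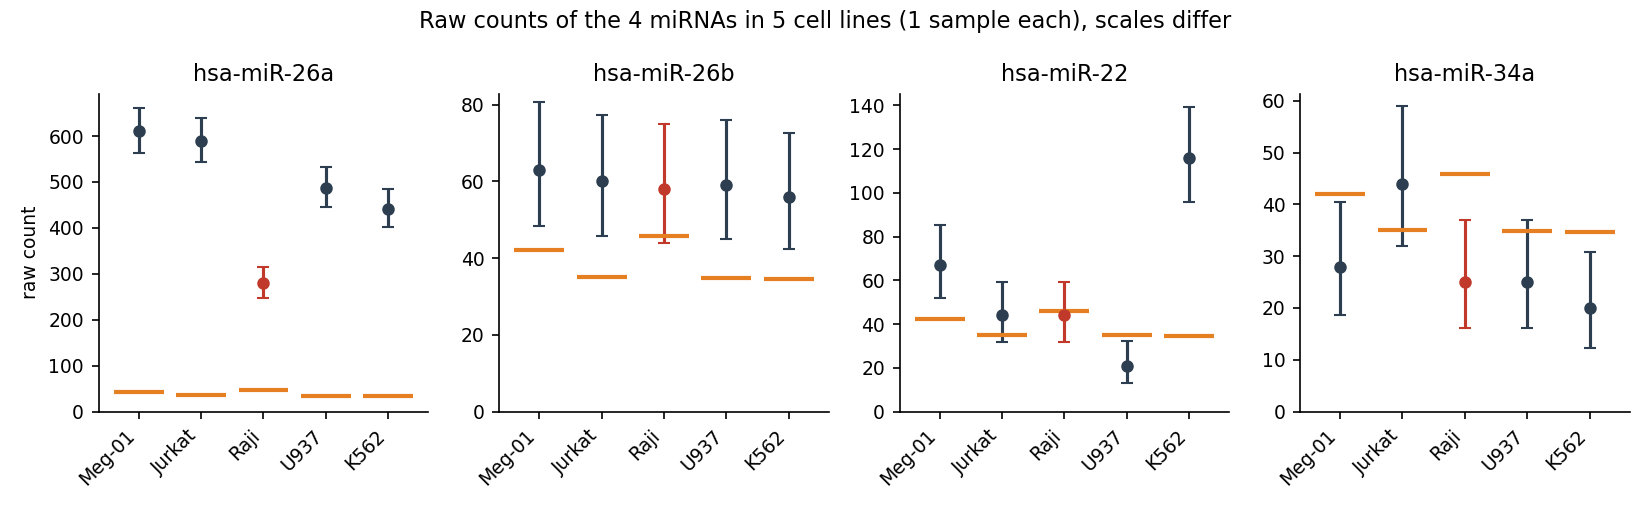
Raw counts (vertical axis, scale differs by panel) of the 4 miRNAs in the 5 lines, 1 sample each. Points are counts, bars are 95% Poisson intervals, short orange lines are the background thresholds, and Raji is in red. hsa-miR-26a is far above the threshold in all lines and lowest in Raji before scaling, hsa-miR-26b is even across lines, hsa-miR-22 is highest in K562, and hsa-miR-34a exceeds the threshold only in Jurkat.

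To compare lines, the mean of the negative controls was subtracted and the difference was scaled by the line's geometric mean over the 100 most abundant miRNAs. The scaling factor was 1.58 for Raji, 0.741 for Meg-01, 0.805 for Jurkat, 1.04 for U937 and 1.22 for K562. The values are called normalized counts over background. A line at or below its threshold entered ratios at its limit of 2 SD of the negative controls, which was 35.9 normalized counts in Raji, 16.1 in Meg-01, 9.88 in Jurkat, 14.6 in U937 and 17.6 in K562. The ratio is then a bound, and none was given where lines at their limit stood on both sides. The range of a ratio runs between the opposite ends of the intervals of both sides.

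After scaling, hsa-miR-26a had 406 normalized counts over background in Raji (355 to 460), 438 in Meg-01 (403 to 475), 457 in Jurkat (419 to 497), 487 in U937 (443 to 535) and 516 in K562 (467 to 569). From high to low the order was K562, U937, Jurkat, Meg-01 and Raji, with a 1.27-fold range, and neighbors in this order were not separated by their counting error. Raji was 0.859 of the median of the other lines (range 0.689 to 1.07). Against single lines, the level in Raji was 0.926 of Meg-01 (0.747 to 1.14), 0.888 of Jurkat (0.715 to 1.10), 0.832 of U937 (0.665 to 1.04) and 0.786 of K562 (0.625 to 0.987). Raji was lowest, but only the range against K562 stayed below 1. In bulk RNA, fewer cells with the miRNA and less of it per cell cannot be told apart.

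The size of this ratio depended on the scaling, and its direction did not except with the deposited signals. It was 0.497 without scaling, 0.525 with the positive controls, 0.428 with the housekeeping mRNA probes and 1.15 with the deposited signals, scaled by their own 100 highest miRNAs. These settings also moved the median over all probes with a mean count over background of at least 50. Its log2 ratio of Raji over the median of the other lines was 0.13 as reported, -0.66 without scaling, -0.46 with the positive controls, -0.82 with the housekeeping probes and 0.60 with the deposited signals. Set against that median, hsa-miR-26a was at -0.35 as reported, -0.35 without scaling, -0.47 with the positive controls, -0.41 with the housekeeping probes and -0.40 with the deposited signals. A scaling moves all probes of a line alike, so these values are close to each other by construction. With the mean count limit changed to 20 or 100, the value was -0.66 or -0.11, and with U937 left out it was -0.21.

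**Figure D2:**
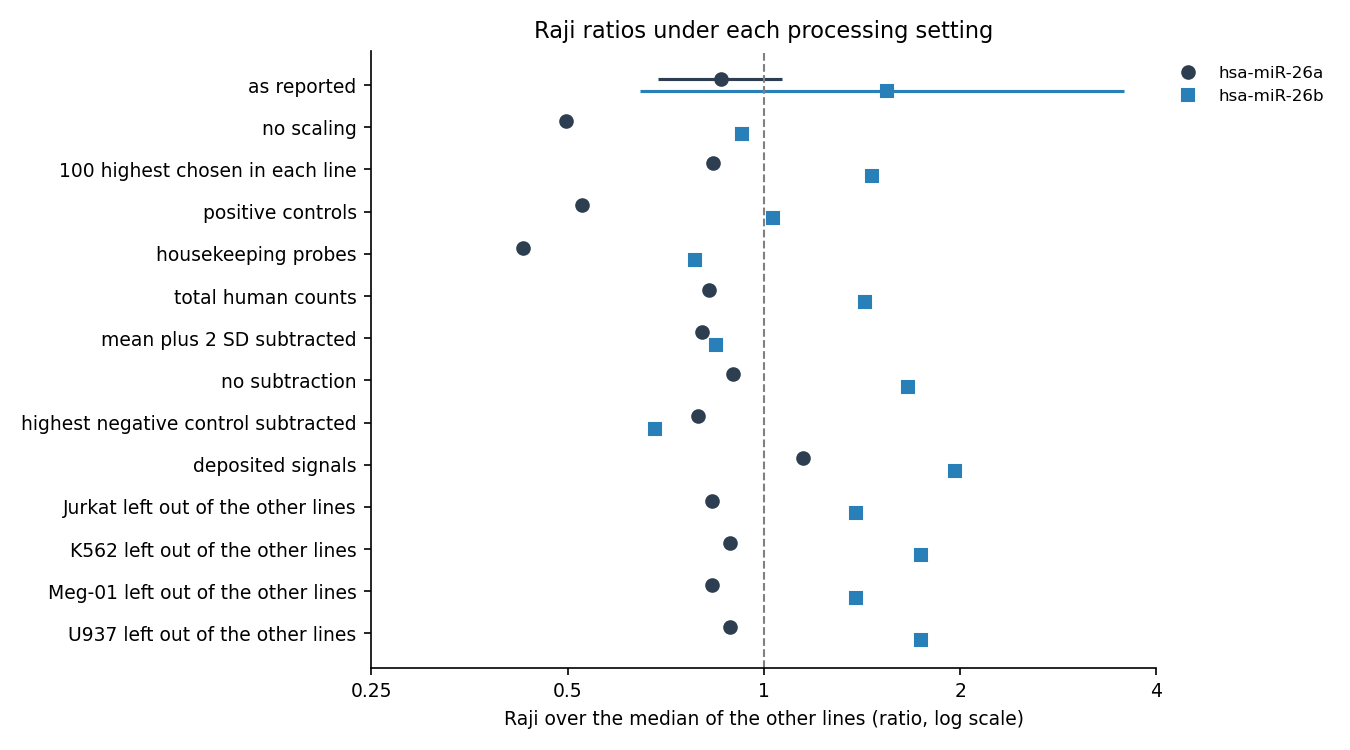
Ratio of Raji to the median of the other lines (horizontal log axis) for hsa-miR-26a and hsa-miR-26b under each setting, with the range from counting error for the values as reported. hsa-miR-26a lies below 1 except with the deposited signals and is lowest with the housekeeping probes (0.428), while hsa-miR-26b lies on both sides of 1.

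hsa-miR-26b had 55.1 normalized counts over background in Raji (33.0 to 81.9), 31.6 in Meg-01 (20.8 to 44.7), 30 in Jurkat (18.6 to 43.9), 39.8 in U937 (25.1 to 57.6) and 43.7 in K562 (27.0 to 64.2). Its place as highest in Raji comes with the scaling factor, since the raw counts were even. Raji was 1.54 times the median of the other lines (0.646 to 3.57), and this was 0.925 without scaling, 0.784 with the housekeeping probes, 0.846 with the mean plus 2 SD subtracted and 0.680 with the highest negative control subtracted. No direction was given for hsa-miR-26b.

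hsa-miR-22 had 34.6 normalized counts over background in Meg-01 (23.4 to 48.0), 17.1 in Jurkat (7.43 to 29.2) and 117 in K562 (92.5 to 145), and it was below the threshold in Raji and U937. The level in K562 was 3.39 times that in Meg-01 (1.93 to 6.22) and 6.84 times that in Jurkat (3.16 to 19.6). With the lines below background at their limit, K562 was at least 3.26-fold higher than Raji and at least 8.02-fold higher than U937. Raji was thus at most 0.307 of K562, and with both counting intervals at their opposite ends this became 0.614. The bound was 0.143 with the housekeeping probes. With no subtraction, the ratio of the counts as they stand was 0.490, which is not a bound. The bound rests on K562. Against the highest of Meg-01, Jurkat and U937 it was at most 1.04, and against the median of all other lines at most 1.39. The latter was at most 0.670 without scaling, 0.795 with the positive controls and 0.827 with the housekeeping probes. No direction was given for Raji against the lines other than K562.

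For hsa-miR-34a, no ratio was given for Raji against Meg-01, U937 or K562, because both sides were at background. Against Jurkat, Raji was at most 2.10, a bound that gives no direction.

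Ratios of members within a line do not change with scaling, and how they changed between lines was compared. The ratio of hsa-miR-26a to hsa-miR-26b was 7.37 in Raji (4.34 to 13.9), 13.9 in Meg-01 (9.02 to 22.9), 15.2 in Jurkat (9.56 to 26.8), 12.3 in U937 (7.69 to 21.3) and 11.8 in K562 (7.27 to 21.1). It was lowest in Raji, with a range that overlapped those of all other lines. This place was not kept with the mean plus 2 SD subtracted. The ratio was then 19.3 in Raji, 27.2 in Meg-01, 22.2 in Jurkat, 18.8 in U937 and 19.1 in K562. The values in Raji and Meg-01 were above their ranges. No order of lines was therefore read from this ratio. The ratio of hsa-miR-22 to hsa-miR-26a was at most 0.0885 in Raji, 0.0789 in Meg-01 (0.0492 to 0.119), 0.0375 in Jurkat (0.0149 to 0.0698), at most 0.0300 in U937 and 0.227 in K562 (0.163 to 0.312). With counting error the bound in Raji was 0.160. With the mean plus 2 SD subtracted, the ratio was 0.0438 in Meg-01, below its range, 0.0162 in Jurkat and 0.200 in K562. The high level of hsa-miR-22 in K562 was therefore also present relative to hsa-miR-26a.

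**Figure D3:**
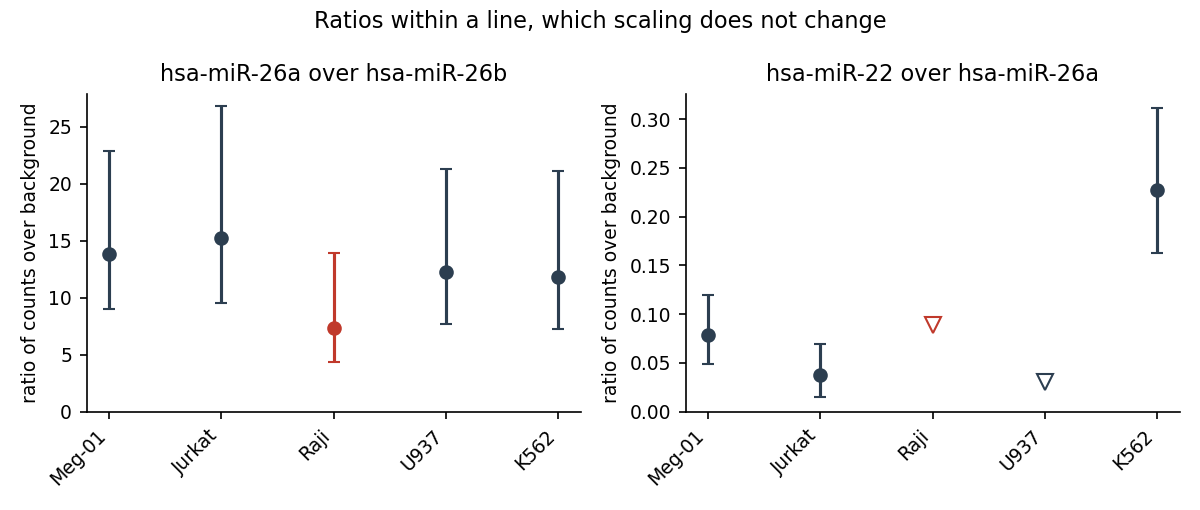
Ratio of counts over background between members within each line (vertical axes start at 0). Bars are ranges from counting error, open triangles are upper bounds for lines where hsa-miR-22 was below background, and Raji is in red. hsa-miR-26a over hsa-miR-26b is 7.37 in Raji, with a range that overlaps those of the other lines and a place that depends on the background subtracted, and hsa-miR-22 over hsa-miR-26a is highest in K562 (0.227).

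Probes with related sequences were mostly at background. miR-1297, which has the seed of miR-26, was above the threshold only in Jurkat, with 36 counts. miR-449a, miR-449b and miR-449c were below it in all 5 lines. miR-34b, whose unmarked name denotes the other arm of its hairpin and which does not have the seed of hsa-miR-34a, had 39 counts in Raji, 45 in Meg-01, 46 in Jurkat, 38 in U937 and 43 in K562, below the threshold only in Raji. miR-34c-5p was above it only in K562 with 35 counts, although its 36 counts in Raji were the most of any line and below the higher threshold there, and miR-34c-3p in Jurkat with 43 and in K562 with 47. None of these probes was above background in Raji. The panel has 0 probes for the star arms of the members.

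For the place of Raji among the lines in general, 102 human probes had a mean count over background of at least 50, and 88 of them gave a ratio of Raji to the median of the other lines. Raji was the lowest of the 5 lines for 18 of the 102 probes (17.6%), and another 18 were below background in Raji and could not be placed. This share was 42.2% without scaling, 36.3% with the positive controls, 38.2% with the housekeeping probes and 10.8% at a limit of 20. Of the 88 probes with a ratio, Raji was under 0.5 of the median for 20.5% and over 2 times the median for 17.0%. Of the members, only hsa-miR-26a passed this limit. It was lowest in Raji, was not under 0.5 of the median, and 32 of the 88 probes had a lower ratio. hsa-miR-26a was thus one of many probes with a modest difference.

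Other miRNAs described as repressed by MYC were read beside it, from a list of 24 probes. It holds let-7, miR-15a, miR-16, miR-23, miR-29, miR-30, miR-146a, miR-150, miR-195 and miR-497. Of these, 16 passed the limit and 14 gave a ratio. Their median log2 ratio of Raji over the median of the other lines was 0.65, against 0.13 for all probes, with 6 over 2 times and 2 under 0.5 of the median. Relative to all probes the median of the list was higher in Raji by 0.52, although with the housekeeping probes its own median was -0.31. The 0.52 depended on the lines compared. It was 0.09 with K562 left out and 0.18 with Meg-01 left out, but 1.57 with Jurkat left out and 1.67 with U937 left out. It was not found against Jurkat or U937 alone, as given below. The highest ratios were those of miR-146a, a regulator of innate immune signaling, with 13.3 and of miR-29a with 5.34. miR-146a passed the limit only through Raji, since its mean count over background in the other lines was 48.9, so its place among the 6 over 2 times is in part set by the limit. The lowest were miR-23a, at most 0.119, and let-7e, at 0.388, and miR-23a was also lowest in Raji among all lines. For let-7e, Raji and Jurkat had the same 59.8 normalized counts over background. miR-146a had 206 raw counts in Raji, 46 in Meg-01, 53 in Jurkat, 147 in U937 and 34 in K562. miR-23a had 25, 597, 90, 701 and 165 counts in the same order, with Raji below its threshold.

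The median of the list depended on the line that Raji was set against. It was 2.44 against Meg-01 and 2.09 against K562, but -0.27 against Jurkat and 0.18 against U937. The medians of all probes were 0.18, -0.14, -0.13 and 0.13 in the same order of lines. Relative to all probes, the list was higher in Raji by 2.26 against Meg-01 and 2.23 against K562, and was at -0.13 against Jurkat and 0.05 against U937. Against a single line, another scaling moves every log2 ratio by the same amount, so these relative values do not depend on it. Of the list members with a ratio, bounds included, 11 of 14 were above the median of all probes against Meg-01 and 12 of 14 against K562, with 7 of 16 for Jurkat and 7 of 14 for U937. These are not counts of unrelated miRNAs, since the list holds families such as let-7. let-7g had 3598 normalized counts over background in Raji, 211 in Meg-01 and 46.2 in K562. let-7e went the other way, with 59.8, 178 and 175 in the same order. The offset from all probes was thus found against Meg-01 and K562 and not against Jurkat or U937.

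The miR-17-92 list, described as activated by MYC, had 6 probes, which include those shared with miR-106a and miR-20b, and all 6 passed the limit. Their median log2 ratio was -0.10 as reported, with 0 over 2 times and 0 under 0.5 of the median. The median log2 ratio of this list changed sign with the processing. It was -0.93 without scaling, -1.10 with the housekeeping probes, 0.31 with the deposited signals and 0.099 with K562 left out. As reported, the highest probes were miR-19b with a ratio of 1.06 and miR-18a with 0.999. The lowest were miR-19a with 0.724 and the probe for miR-20a and miR-20b with 0.788. Relative to the median of all probes, the list was at -1.16 against K562, -0.43 against U937, 0.17 against Jurkat and 0.19 against Meg-01. Raji thus stood lowest against K562. There, 6 of 6 of these probes were lower in Raji with the scaling used here. All 6 had their highest level of the 5 lines in K562. Of all human probes with a ratio against K562, bounds included, 46 of 90 were lower in Raji. Against Meg-01, 6 of 6 miR-17-92 probes were higher in Raji, beside 51 of 98 of all probes. Against Jurkat, 4 of 6 were higher, beside 42 of 92, and for U937, 5 of 6 were lower, beside 40 of 92.

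**Figure D4:**
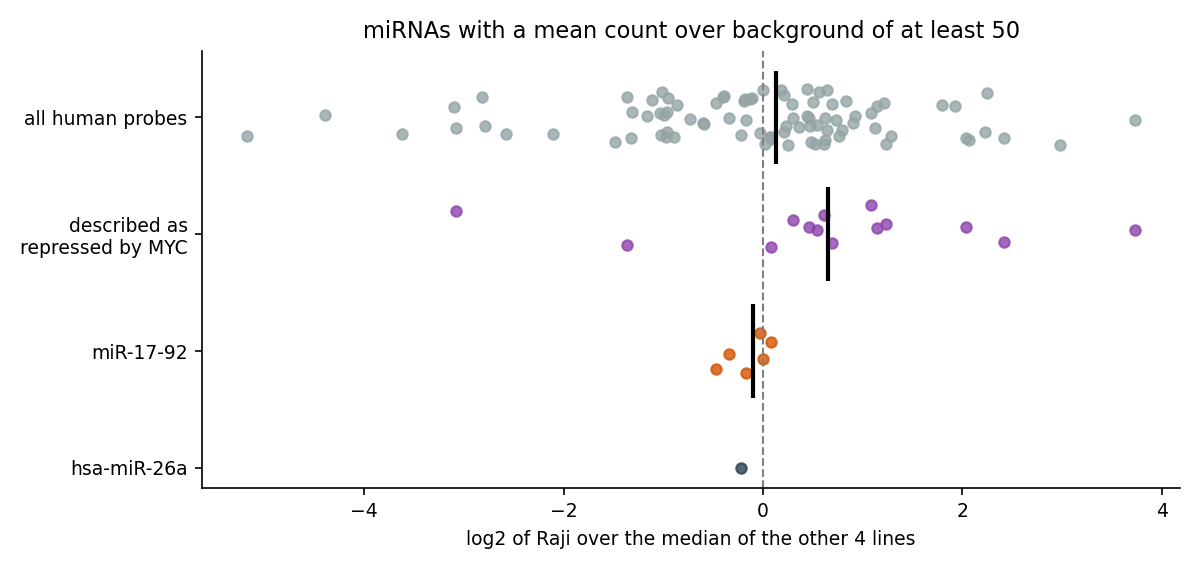
log2 ratio of Raji over the median of the other 4 lines (horizontal axis) for probes with a mean count over background of at least 50. Each point is a probe, probes below background in Raji are drawn at an upper bound and those below it in the other lines at a lower bound, vertical bars are medians, and points are spread vertically only to be seen. The median is 0.13 for all probes, 0.65 for miRNAs described as repressed by MYC and -0.10 for miR-17-92, and hsa-miR-26a is at -0.22. These values shift together with the scaling.

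The probes most like each member across the lines were sought among 156 other human probes above background in 3 or more lines, by the mean absolute difference in log2 normalized counts after centering on the mean of the 5 lines. These counts were not background-subtracted and include lines below their threshold. A pattern that these probes share with the member follows from this choice. For hsa-miR-26a they were miR-30c (0.13), which was below background in Raji with 39 counts, miR-27b (0.16) and miR-148b (0.17). miR-27b had 232 raw counts in Raji, 423 in Meg-01, 431 in Jurkat, 397 in U937 and 463 in K562, again lowest in Raji before scaling. For hsa-miR-26b they were miR-664 (0.063), miR-544 (0.064) and miR-300 (0.071), whose raw counts were also even across lines, with 163 to 195 for miR-544 and 39 to 48 for miR-300, which was below background in Raji. For hsa-miR-22, itself below background in Raji and U937, they were miR-214 (0.32), miR-720 (0.37) and miR-1260 (0.38), all with their highest count in K562.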

How the data were processed

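The authors deposited for each line the instrument's raw count of 753 probes, and for the human probes a background-subtracted signal, equal to the count less 1 constant per line and not scaled. The methods name more than 1 kit version without saying which was used for these lanes. Their chemistry is not given in the sources used here. Raw counts were used, and the deposited signals served as an alternative for the 652 human probes matched by name. Scaling and threshold follow the methods, which also state that background was subtracted. Here the mean of the negative controls was subtracted, because their SD was largest in Raji, and subtracting the whole threshold was run as an alternative. The 100 miRNAs for scaling were those with the highest mean over the 5 lines. Lists were compared over probes with a mean count over background of at least 50. Python 3.11.15, numpy 2.4.6, pandas 2.3.3, scipy 1.17.1 and matplotlib 3.10.9 were used. The scaling and the ratios were tested on simulated data, for probes well above background only. That test did not check threshold calls, bounds or levels as low as those of hsa-miR-22, hsa-miR-26b and hsa-miR-34a.

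Named beside the members were related arms and seed families, the 2 highest and 2 lowest of each MYC list, and the 3 probes most like each member above background in 3 or more lines. The members and lists were chosen with earlier results of these data known. Alternatives were no scaling, the 100 highest chosen in each line, positive controls, housekeeping probes or total human counts for scaling, other subtractions and thresholds, limits of 20 and 100 on the mean count, and leaving out Jurkat or K562. Leaving out Meg-01 or U937, the other subtraction for ratios within a line, the list medians against single lines and the comparison of even counts were chosen after seeing the data.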

Additional observations from a re-analysis of the deposited data

How the results depend on the processing

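The ratio of Raji to the median of the other lines for hsa-miR-26a stayed below 1 in 12 of 13 alternatives, and 9 were within its counting error. It moved to 0.497 without scaling, 0.525 with the positive controls, 0.428 with the housekeeping probes and 1.15 with the deposited signals. Against the highest other line it was 0.435, 0.475 and 0.368 in the former 3 settings. For hsa-miR-26b, all 13 alternatives were within its wide counting error, 4 of them below 1. The value of hsa-miR-22 against the highest other line turned from below 1 to 1.04 with K562 left out and stayed below 1 in 10 others, where it is a bound except with no subtraction or the deposited signals, and the mean plus 2 SD or the highest negative control subtracted left no value for it in Raji. With the threshold at the mean of the negative controls, 4 members and 61.9% of human probes were above it in Raji, and 3 members and 40.5% at a raw count of 30. The median log2 ratio of the miRNAs described as repressed by MYC was -0.050 without scaling, 0.0026 with the positive controls, -0.31 with the housekeeping probes, 1.16 with the deposited signals and 0.80 at a limit of 20. It was 1.71 with Jurkat left out, 0.18 with K562 left out, 0.24 with Meg-01 left out and 1.71 with U937 left out. Less the median of all probes, it was above 0 in all 15 alternatives, from 0.087 to 1.67. A change of scaling moves the list and all probes nearly alike, and every alternative kept Meg-01 or K562 among the other lines. The sign is thus partly set by these choices. Against Jurkat alone the value was -0.13, and against U937 alone 0.05. The median of miR-17-92 was -0.93 without scaling, -0.89 with the positive controls, -1.10 with the housekeeping probes, -0.26 with total human counts, -0.33 with the mean plus 2 SD subtracted, -0.35 with the highest negative control subtracted and 0.31 with the deposited signals. It was -0.30 with Jurkat left out, 0.099 with K562 left out, -0.30 with Meg-01 left out and 0.039 with U937 left out. Other causes of these moves were not tested. Low counts limit hsa-miR-22, hsa-miR-26b and hsa-miR-34a, and 1 sample per line leaves variation between cultures unmeasured.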

Other observations

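In the deposited signals, the constant subtracted from the counts was 23.12 in Raji, 20.37 in Meg-01, 16.25 in Jurkat, 20.87 in U937 and 22.75 in K562. The mean of the negative controls was 23.125, 20.375, 22.75, 20.875 and 20.25 in the same order. The constant of K562 equals the mean of the negative controls of Jurkat, and the constant of Jurkat matches none of the 5 means. For the members these differences are largest in Jurkat, where hsa-miR-34a and hsa-miR-22 had 44 raw counts each. They enter only the values given with the deposited signals. Those values also differ by a scaling to the signals themselves, and the part of each was not tested.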
